A study of Canis lupus familiaris with 27 samples.

Results

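LATS1, LATS2, STK3, STK4, SAV1, YAP1, WWTR1, TEAD1, CCN1 and CCN2, which are 10 genes of the Hippo pathway, were followed through 27 canine simple mammary carcinomas. They were measured by 23 probe sets, out of 15115 genes with a single symbol and 42860 probe sets on the array. A probe set was taken for a gene when the platform's annotation gave it that symbol and no other, and among several probe sets of a gene the one with the highest average signal was taken as the main one. The pathway was selected on a result of these same data, since LATS1 was known to be low in metastatic tumors when the genes were chosen. The authors had also listed STK3 and STK4 as up-regulated and CCN1 (as CYR61) as down-regulated in these metastatic tumors. The differences by lymph node status are therefore a description, given with standard errors and intervals but without p-values, and the calls among the 10 genes support nothing about the pathway. The comparisons by grade and size and the agreement of probe sets within each group did not enter the choice and were tested.

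The Hippo pathway is a kinase cascade that limits organ growth. The kinases STK3 and STK4 (MST2 and MST1), held by the scaffold SAV1, activate LATS1 and LATS2, which phosphorylate the coactivators YAP1 and WWTR1 (TAZ) and keep them out of the nucleus. Unphosphorylated YAP1 and WWTR1 bind TEAD factors such as TEAD1 and switch on genes that include CCN1 (CYR61) and CCN2 (CTGF), which encode secreted matricellular proteins. Much of this regulation is by phosphorylation and location of the proteins, which an mRNA array does not measure. In the mammary gland the pathway is known for its part in the basal and luminal identity of epithelial cells and in the growth of carcinomas.

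The 13 metastatic carcinomas came from dogs with lymph node metastases at surgery and the 14 non-metastatic carcinomas from dogs without. All were invasive tumors of dogs of various breeds without a history of progestin treatment, negative for the estrogen receptor, macrodissected to enrich carcinoma cells and hybridized singly to Affymetrix Canine Genome 2.0 arrays. By the sample labels the metastatic group held 6 grade II and 7 grade III carcinomas, and the non-metastatic group 5 and 9. The methods name grade III among the selection criteria of the non-metastatic carcinomas, although 5 of them are labelled grade II. Metastatic carcinomas were 2.42 ± 1.32 cm (SD, n = 13) in dogs of 12.4 ± 2.66 years, and the non-metastatic tumors, which had been selected for size, 5.21 ± 3.53 cm (SD, n = 14) in dogs of 11.4 ± 1.65 years. Values are the authors' gcRMA signals on the log2 scale, so that a difference of 1 is a doubling, and the number of arrays limits their precision. EPCAM, an epithelial adhesion molecule, had a value of 11.6 or more in every tumor. The median over the means of all probe sets was 3.77. The lowest tumor values of other epithelial genes ran from 2.71 (ELF3) to 8.99 (KRT8). The mean of 7 epithelial genes ranged from 8.45 to 11.73 in metastatic and from 6.19 to 11.67 in non-metastatic tumors.

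Features other than lymph node status set the groups apart. The names of 11 of the 13 metastatic tumors and of 0 of the 14 non-metastatic tumors end in the letter T, and the labels do not say what it marks. The upper quartile of the array averaged 7.93 with an SD of 0.039 over the 13 metastatic tumors, and 7.76 with an SD of 0.15 over the 14 non-metastatic ones. RNA quality can be read from controls for the ends of the GAPDH transcript, of which the array has more than 1 pair. The first pair gave a 3′ minus 5′ difference of 0.071 ± 0.12 and 0.073 ± 0.16, whereas the second gave 1.84 ± 0.32 and 1.32 ± 0.42. The mean of 10 smooth muscle and myoepithelial genes ranged from 7.26 to 9.44 in metastatic and from 8.15 to 10.75 in non-metastatic tumors. That of 8 proliferation genes ranged from 6.62 to 10.4 and from 4.36 to 8.76. The part of these features in the differences below was not tested, other than by the fits with each of them as a further term.

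At their main probe sets LATS1 and YAP1 were lower in metastatic carcinomas and STK3 and STK4 were higher. The second LATS1 probe set had the other sign (0.54, not called). Among tumors with names not ending in T the differences of LATS1, STK3 and YAP1 were smaller and that of STK4 was similar, as given below. At an adjusted p of 0.05 in the limma fit, 2 of the 10 genes were called lower and 2 higher, against 7.90% of all genes called lower and 11.3% called higher. Neither share is read as a result, since the genes were chosen with this contrast in view. The other 6 genes were not called. The median difference of the 10 genes was -0.0019, beside -0.0019 over all genes. It lies in a gap between CCN2 (-0.31) and TEAD1 (0.31), the smallest differences of the 10, so no gene lay near that median. No gene of the 10 separated the groups without overlap, which 9 of 15115 genes did (0.0595%). In whole tumor tissue, fewer cells of a type and less RNA per cell cannot be told apart.

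**Figure D1:**
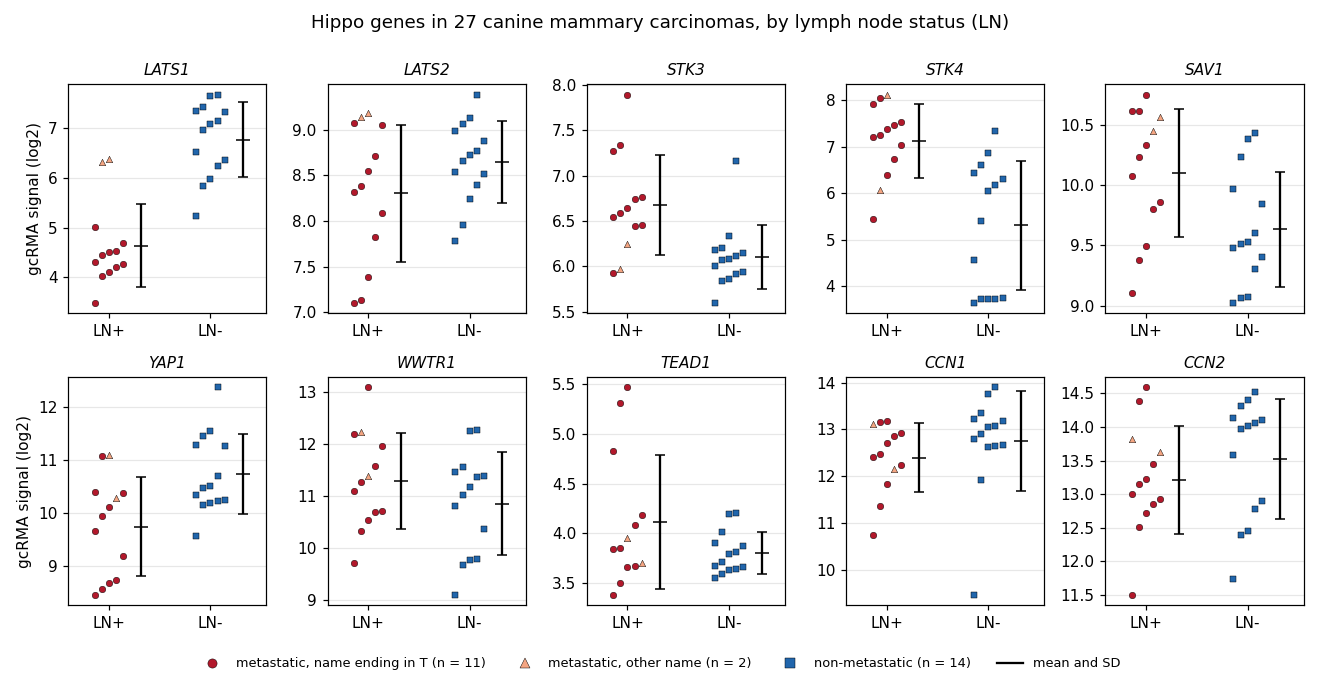
Log2 gcRMA signal of the 10 genes at their probe set of highest mean in 13 metastatic (LN+) and 14 non-metastatic (LN-) carcinomas, 1 point per tumor, with the mean and SD of each group beside the points. In LATS1 the 11 metastatic tumors with names ending in T lie at or below 5.01, and the remaining 2 metastatic tumors, drawn as triangles, lie at 6.32 and 6.38 among the non-metastatic tumors.

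The kinase LATS1 had the largest difference of the 10. Its probe set Cfa.2347.1.S1_at ranged from 3.50 to 6.38 with a median of 4.45 in metastatic tumors, and from 5.24 to 7.68 with a median of 7.02 in non-metastatic tumors. All 13 metastatic tumors lay below the non-metastatic median and 11 lay below the lowest non-metastatic tumor. The difference was -2.13 (SE 0.30, 95% interval -2.75 to -1.52), a ratio of 0.228. It was called without each of the 27 tumors in turn, which adds no support for a gene known beforehand to be low.

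The 11 low values of LATS1 were those of the 11 tumors with names ending in T. These ranged from 3.50 to 5.01, whereas the 2 metastatic tumors with other names had 6.38 (metastatic tumor 1) and 6.32 (metastatic tumor 2), inside the non-metastatic range. Among tumors with names not ending in T, 2 metastatic against 14 non-metastatic, the LATS1 difference was -0.43 (SE 0.53, 95% interval -1.55 to 0.70). For the 11 other tumors, lymph node status and whatever the name ending stands for cannot be told apart. With the mean of the smooth muscle and myoepithelial genes in the fit the LATS1 difference was -1.29 (95% interval -2.06 to -0.52) and was no longer called.

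LATS2, the paralog of LATS1, was not called. Cfa.7713.1.A1_at ranged from 7.11 to 9.18 (median 8.38) in metastatic and from 7.78 to 9.38 (median 8.69) in non-metastatic tumors, a difference of -0.34 (SE 0.23, 95% interval -0.82 to 0.14). The groups overlapped over most of their range, with 3 metastatic tumors below the lowest non-metastatic one. The difference took the other sign, 0.51, among tumors with names not ending in T. With the mean of the fibroblast genes in the fit it was -0.59 (95% interval -0.999 to -0.19) and was called as lower.

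STK4 was the more variable of the upstream kinases. Cfa.11970.1.A1_s_at ranged from 5.45 to 8.12 (median 7.25) in metastatic tumors and from 3.64 to 7.34 (median 5.72) in non-metastatic tumors, and 6 metastatic tumors lay above every non-metastatic one. In 5 of the 14 non-metastatic tumors it lay between 3.64 and 3.75, below the 3.77 that is the median of all probe set means, and the next tumor stood at 4.55. No metastatic tumor was that low. The difference was 1.82 (SE 0.43, 95% interval 0.93 to 2.71), and among tumors with names not ending in T it was 1.79 (95% interval -0.38 to 3.96), from metastatic values of 6.07 and 8.12. With the first GAPDH pair in the fit the STK4 difference was 1.81 with a smaller SE, 0.31. Part of the STK4 spread within groups thus went with this RNA quality control, and the cause was not tested.

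STK3 was higher by all 3 of its probe sets. At CfaAffx.1690.1.S1_at the metastatic tumors ranged from 5.93 to 7.89 (median 6.59) and the non-metastatic tumors from 5.60 to 7.17 (median 6.08), a difference of 0.57 (SE 0.17, 95% interval 0.22 to 0.93). The highest non-metastatic value, 7.17, was that of non-metastatic tumor 12, and the next was 6.33. By age, grade and size this tumor matches the dog that the methods list with later lung metastases, but the recorded follow-up differs, so the match is not certain. Among tumors with names not ending in T the difference was 0.0019 (95% interval -0.54 to 0.55). It was 0.13 with the smooth muscle mean, 0.36 with the second GAPDH pair and 0.39 after quantile normalization again, and was called in none of these fits.

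The scaffold SAV1 was not called at its main probe set. Cfa.3311.1.S1_at ranged from 9.10 to 10.75 (median 10.24) in metastatic and from 9.02 to 10.44 (median 9.52) in non-metastatic tumors, with 5 metastatic tumors above the highest non-metastatic one. The difference was 0.47 (SE 0.19, 95% interval 0.075 to 0.86). It was called without non-metastatic tumor 8, without non-metastatic tumor 12 and without metastatic tumor 13, and with grade in the fit. Among tumors with names not ending in T it was 0.88 (95% interval 0.16 to 1.59).

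Of the coactivators YAP1 was called and WWTR1 was not. YAP1, measured by the single probe set CfaAffx.23267.1.S1_at, ranged from 8.46 to 11.09 (median 9.94) in metastatic and from 9.56 to 12.4 (median 10.49) in non-metastatic tumors. The difference was -0.997 (SE 0.32, 95% interval -1.65 to -0.35), with 11 of 13 metastatic tumors below the non-metastatic median and 5 below the lowest non-metastatic tumor, again number 12. It was -0.047 (95% interval -1.19 to 1.09) among tumors with names not ending in T and -0.11 (95% interval -0.93 to 0.71) with the smooth muscle mean in the fit.

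WWTR1 lay between 9.70 and 13.10 (median 11.28) in metastatic and between 9.10 and 12.3 (median 11.09) in non-metastatic tumors at Cfa.2271.1.S1_at. The difference of 0.44 (SE 0.36, 95% interval -0.31 to 1.18) was within the spread of the tumors, and it was -0.10 with the array upper quartile in the fit. The transcription factor TEAD1, which gives the coactivators their DNA binding, had low values at both of its probe sets. At Cfa.20352.1.S1_at they ran from 3.38 to 5.47 (median 3.86) in metastatic and from 3.55 to 4.21 (median 3.75) in non-metastatic tumors, and 5 metastatic and 7 non-metastatic tumors lay below the median of all probe set means. The difference was 0.31 (SE 0.19, 95% interval -0.073 to 0.69).

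The target genes CCN1 and CCN2 were not called at their main probe sets. CCN1 at Cfa.12820.2.A1_a_at ranged from 10.75 to 13.2 (median 12.48) in metastatic and from 9.48 to 13.9 (median 12.97) in non-metastatic tumors, a difference of -0.35 (SE 0.35, 95% interval -1.07 to 0.36). CCN2 at Cfa.1225.1.S1_at ranged from 11.5 to 14.59 (median 13.16) and from 11.73 to 14.5 (median 13.99), a difference of -0.31 (SE 0.32, 95% interval -0.98 to 0.35). The medians differed by more than the means, since 11 of 13 metastatic tumors lay below the non-metastatic median of CCN2 while both groups reached similar extremes.

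Over all 23 probe sets, 3 were called lower and 6 higher, against 11.4% of all probe sets called lower and 9.76% higher. Of the 9 genes with several probe sets, 7 had differences of 1 sign at all of them. The exceptions were LATS1 and LATS2. YAP1 had no second probe set to compare.

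**Figure D2:**
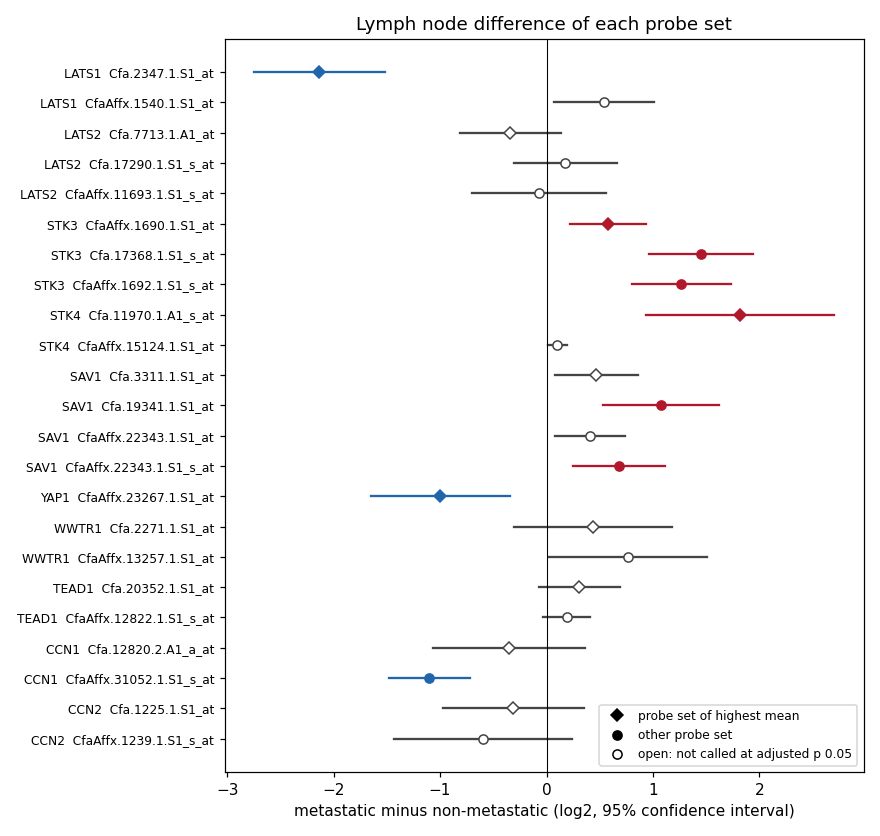
Metastatic minus non-metastatic difference (log2) of each of the 23 probe sets with its 95% confidence interval, diamonds for the probe set of highest mean of a gene and circles for the others, filled where the limma fit called it at an adjusted p of 0.05. The LATS1 probe sets lie on opposite sides of 0, at -2.13 and 0.54, and all probe sets of STK3 and SAV1 lie above 0.

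The second LATS1 probe set, CfaAffx.1540.1.S1_at, did not share the low values. It ranged from 3.64 to 6.31 (median 5.65) in metastatic and from 3.99 to 6.04 (median 5.00) in non-metastatic tumors, a difference of 0.54 (SE 0.23, 95% interval 0.073 to 1.01) that was not called. Its lowest value, 3.64, was that of metastatic tumor 1, which had the highest metastatic value of the main probe set. Without that tumor, and also without non-metastatic tumor 12, the difference was called as higher. It turned to -0.30 among tumors with names not ending in T and to -0.094 with the smooth muscle mean in the fit. Subtracting the second LATS1 probe set from the main one within each tumor gave on average -0.87 for metastatic tumors and 1.80 for the others, and 11 of 13 metastatic tumors lay below every non-metastatic one. Averaged over both probe sets, the LATS1 difference was -0.80 and was called.

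In neither group did the LATS1 probe sets correlate at an adjusted p below 0.05. Pearson's r was -0.39 in metastatic tumors (Spearman's rho 0.12, permutation test, adjusted p = 0.210 for r and 0.737 for rho, n = 13) and -0.47 in non-metastatic tumors (rho -0.42, adjusted p = 0.112 and 0.176, n = 14). Without the 2 tumors farthest from the median of the main probe set, r was 0.44 and -0.40. In the metastatic tumors the sign thus rests on those 2 tumors, which are the 2 with names not ending in T. The files do not say which transcript or exon each probe set covers.

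**Figure D3:**
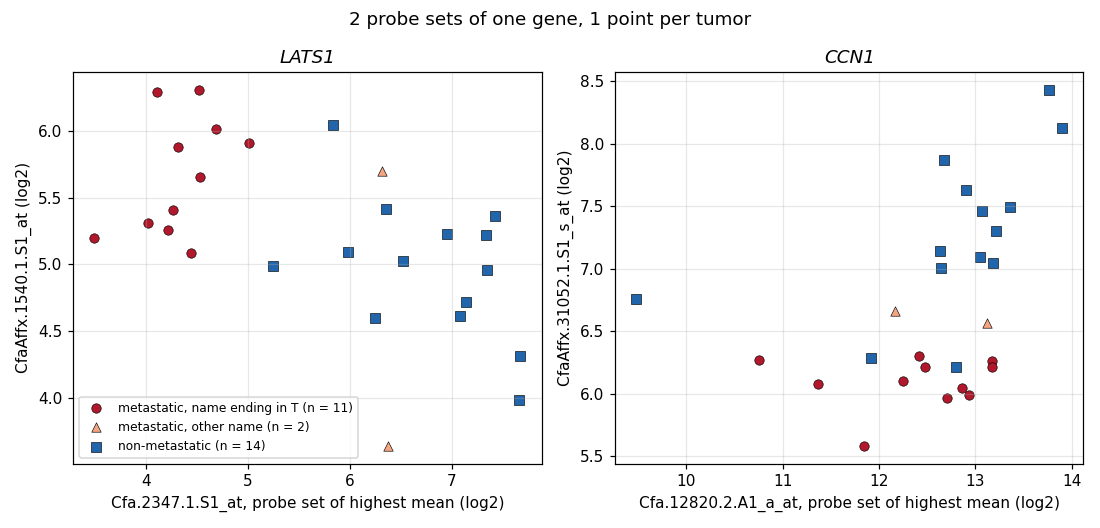
Log2 signals of the probe set of highest mean (horizontal axis) and of the other probe set (vertical axis) of LATS1 and of CCN1 in each of the 27 tumors. The 11 metastatic tumors with names ending in T form a separate cloud in LATS1, at 3.50 to 5.01 on the horizontal and 5.08 to 6.31 on the vertical axis, and in CCN1 they lie at or below 6.30 on the vertical axis.

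CCN1 also depended on the probe set. At CfaAffx.31052.1.S1_s_at the metastatic tumors ranged from 5.58 to 6.67 (median 6.21) and the non-metastatic tumors from 6.22 to 8.43 (median 7.22). All 13 metastatic tumors lay below the non-metastatic median and 8 below the lowest non-metastatic tumor. The difference was -1.10 (SE 0.19, 95% interval -1.48 to -0.72). It was called without each tumor in turn, which adds no support for genes chosen with this contrast in view. With the smooth muscle mean in the fit the difference was -1.30 and was called. Among tumors with names not ending in T it was -0.66 (95% interval -1.60 to 0.29), from metastatic values of 6.57 and 6.67. Within groups the CCN1 probe sets correlated by 0.14 in metastatic tumors (rho 0.055, permutation test, adjusted p = 0.646 and 0.863, n = 13) and by 0.54 in non-metastatic tumors (rho 0.66, adjusted p = 0.0651 and 0.0274, n = 14). Without the 2 tumors farthest from the median of the main probe set, r was 0.30 and 0.63.

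The STK3 probe sets moved together and differed in size. Cfa.17368.1.S1_s_at was higher by 1.45 (SE 0.24) and CfaAffx.1692.1.S1_s_at by 1.27 (SE 0.23), against 0.57 at the main probe set, and 10 metastatic tumors lay above every non-metastatic one at the former. Among tumors with names not ending in T these differences were 0.72 (95% interval -0.22 to 1.65) and 0.21 (95% interval -0.69 to 1.11). The 3 pairs of STK3 probe sets correlated by 0.83 to 0.90 in metastatic and by 0.68 to 0.79 in non-metastatic tumors, all with an adjusted permutation p below 0.05 for r. Without the 2 tumors farthest from the median of 1 of the pair, r was 0.74 to 0.82 in metastatic and 0.34 to 0.69 in non-metastatic tumors. For SAV1, Cfa.19341.1.S1_at was higher by 1.08 (SE 0.27) and CfaAffx.22343.1.S1_s_at by 0.68 (SE 0.21), both called, and CfaAffx.22343.1.S1_at by 0.41 (SE 0.16), not called. All 13 metastatic tumors lay above the non-metastatic median at Cfa.19341.1.S1_at. Among tumors with names not ending in T the difference there was 0.34 (95% interval -0.71 to 1.39), and with the second GAPDH pair it was 0.51 and not called. With the proliferation mean in the fit the SAV1 difference was 0.013 at the main probe set and 0.17 at CfaAffx.22343.1.S1_s_at.

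The remaining second probe sets were not called. For STK4, CfaAffx.15124.1.S1_at stayed between 2.36 and 2.91 in all 27 tumors, below the median of all probe set means, with a difference of 0.10 (SE 0.045), and it correlated with the main probe set by 0.30 among metastatic tumors and by -0.36 among the others. The STK4 difference therefore rests on a single probe set. WWTR1 at CfaAffx.13257.1.S1_at differed by 0.77 (SE 0.36) and CCN2 at CfaAffx.1239.1.S1_s_at by -0.60 (SE 0.41). The WWTR1 probe sets correlated by 0.93 and 0.91 and those of CCN2 by 0.94 and 0.90 in metastatic and non-metastatic tumors. Over the 18 pairs of probe sets of a gene, 14 in metastatic and 12 in non-metastatic tumors correlated at an adjusted permutation p below 0.05, all of them positively. The 2 other LATS2 probe sets differed by 0.18 and -0.068.

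Correlations between the 10 genes were computed within each lymph node group. Of 45 pairs of main probe sets, 0 correlated at an adjusted permutation p below 0.05 in metastatic tumors and 1 did in non-metastatic tumors. That pair was STK4 and YAP1, with r = -0.78 (permutation test, p = 0.00098, adjusted p = 0.0441, n = 14) and rho = -0.63 (p = 0.0193, adjusted p = 0.412). Without the 2 tumors farthest from the median of STK4, r was -0.75. The part of the first GAPDH control in this correlation was not tested. In metastatic tumors the same pair had r = -0.26 (adjusted p = 0.759, n = 13). The highest positive r in each group was that of LATS2 and CCN2, 0.69 in metastatic tumors (rho 0.66, permutation test, p = 0.00733, adjusted p = 0.178, n = 13) and 0.72 in non-metastatic tumors (rho 0.45, p = 0.00384, adjusted p = 0.0864, n = 14). Without the 2 tumors farthest from the median of LATS2 it was 0.66 and 0.43. The targets CCN1 and CCN2 correlated by 0.12 in metastatic and 0.45 in non-metastatic tumors (adjusted p = 0.935 and 0.328), and YAP1 and WWTR1 by -0.052 and -0.24 (adjusted p = 0.981 and 0.667).

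Grade III was compared with grade II with lymph node status in the fit. Of the 10 genes 0 were called, as were 0% of all genes, and at an unadjusted p of 0.05 there was 1 of the 10 genes and 884 of 15115. The 1 gene was SAV1, higher in grade III by 0.48 (SE 0.17, 95% interval 0.12 to 0.84, limma adjusted p = 0.781). In metastatic tumors SAV1 ranged from 9.10 to 10.62 in the 6 of grade II and from 9.80 to 10.75 in the 7 of grade III. In non-metastatic tumors it ranged from 9.02 to 9.52 in the 5 of grade II and from 9.07 to 10.44 in the 9 of grade III, so that the grades overlapped in both. The grade differences of the other 9 genes lay between -0.44 (CCN1) and 0.58 (STK4), each with an interval that held 0. That of LATS1 was 0.12 (95% interval -0.52 to 0.76).

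No gene was called for a lymph node difference that changed with grade. The interaction of lymph node status and grade called 0 of the 10 genes and 0% of all genes, and at an unadjusted p of 0.05 it had 0 of the 10 and 402 of 15115. LATS1 was lower by a difference of -2.30 (SE 0.49) in grade II and -1.99 (SE 0.40) in grade III, an interaction of 0.31 (95% interval -0.997 to 1.61). STK4 was higher by 1.67 (SE 0.68) and 2.02 (SE 0.57). CCN2 differed by -0.97 (SE 0.49) in grade II and 0.17 (SE 0.41) in grade III, an interaction of 1.14 (95% interval -0.19 to 2.46, limma adjusted p = 1). With grades of 5 to 9 tumors the intervals of the interaction were wide.

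**Figure D4:**
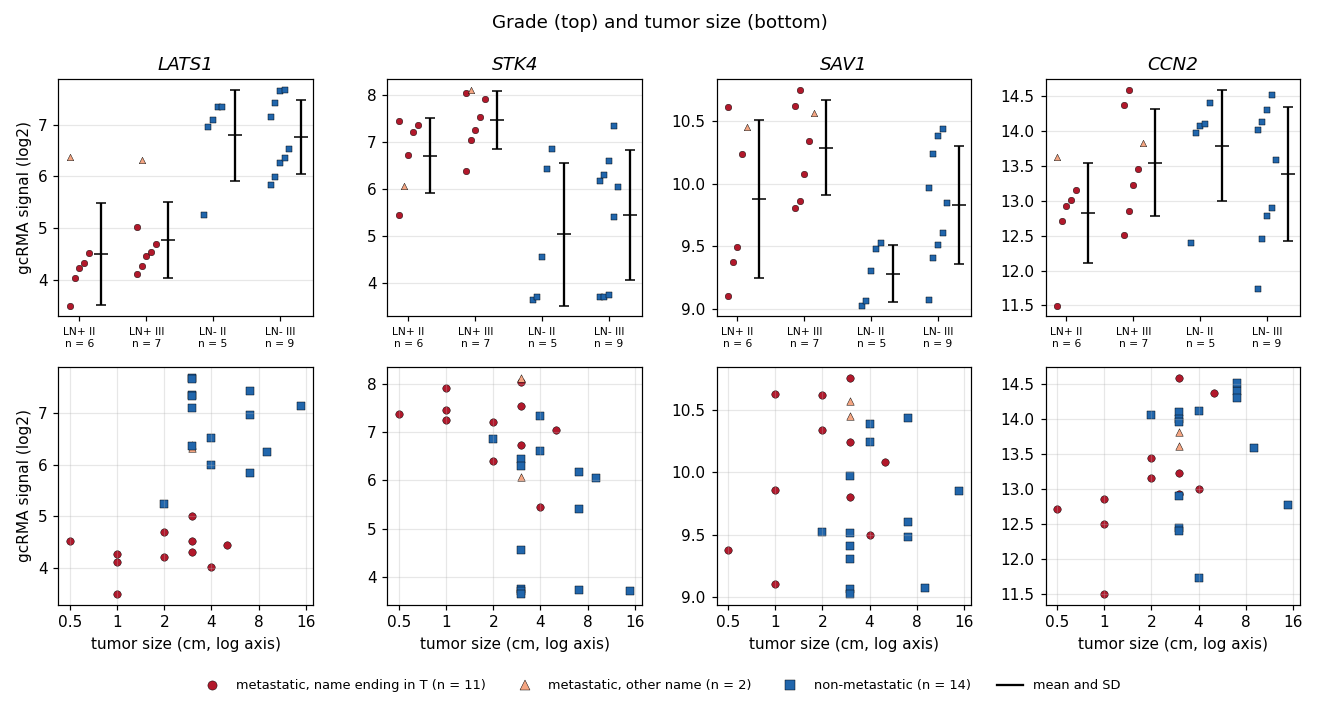
Log2 gcRMA signal of LATS1, STK4, SAV1 and CCN2 by lymph node status and grade (top, mean and SD beside the points) and against tumor size in cm on a log axis (bottom), 1 point per tumor. In both grades the metastatic LATS1 values with names ending in T lie below the non-metastatic ones, and the metastatic tumors span 0.5 to 5 cm against 2 to 15 cm for the non-metastatic ones.

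Tumor size was fitted as the change per doubling with lymph node status held fixed. Of the 10 genes 0 were called, as were 0% of all genes, and at an unadjusted p of 0.05 there were 0 of the 10 genes and 1171 of 15115. The slope of highest size was that of CCN2, 0.36 per doubling (SE 0.18, 95% interval -0.0077 to 0.72, limma adjusted p = 0.636). The slope of CCN2 was 0.42 (SE 0.23) at its second probe set. LATS1 had a slope of 0.19 (95% interval -0.17 to 0.54) and STK4 of -0.29 (95% interval -0.80 to 0.22). With log2 size in the fit, the lymph node difference of LATS1 was -1.92 and was called, whereas those of STK4 (1.49), STK3 (0.51) and YAP1 (-0.93) were not.

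**Figure D5:**
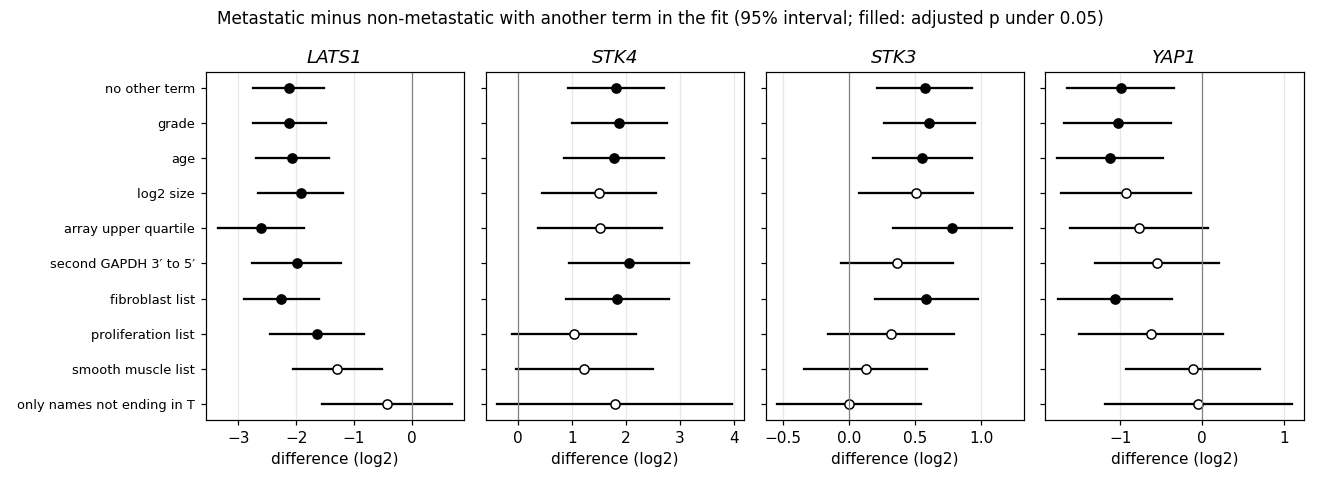
Metastatic minus non-metastatic difference (log2) with its 95% confidence interval for the 4 genes called in the limma fit, with no other term, with the term named at the left, and among tumors with names not ending in T only, filled where the adjusted p was below 0.05. LATS1 moves from -2.13 to -1.29 with the smooth muscle list and to -0.43 among names not ending in T.

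The other genes of the pathway were taken from lists written with earlier results of these data known. Each is described from the same limma fit without its p-value, and RASSF1 was already among the authors' up-regulated genes. Of 27 measured upstream and scaffold genes, 0 were called lower and 3 higher, beside 7.90% of all genes called lower and 11.3% called higher. The count is near that background and is no result about the list, whose median difference was -0.0087 beside -0.0019 over all genes. MOB1A, a LATS coactivator, was higher by 0.56 (SE 0.13). RASSF1, a scaffold that binds STK3 and STK4, was higher by 1.11 (SE 0.27). CRB3, an apical polarity protein, was higher by 1.35 (SE 0.41). In 12 of 13 metastatic tumors each of the 3 exceeded the median of the other group. NF2 (merlin), which recruits LATS kinases to the membrane, differed by 0.59 (SE 0.27) and was not called. It averaged 3.30 in metastatic and 2.71 in non-metastatic tumors, both below the median of all probe set means. The differences were 0.13 for MOB1A, 1.77 for RASSF1 and 1.18 for CRB3 among tumors with names not ending in T, of which only 2 were metastatic.

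Of 5 measured TEAD family members and cofactors 0 were called, with a median of -0.0085 and 0 at an unadjusted p of 0.05. VGLL1, VGLL2 and TEAD4 averaged below 3.77, the median of all probe set means, in both groups, which leaves little room for a call. VGLL4, a competitor of YAP1 for TEAD binding, differed by -0.46 (SE 0.39) and TEAD4 by 0.31 (SE 0.39). Of 15 further YAP and TAZ target genes 1 was called lower and 0 higher, again near the 7.90% and 11.3% of all genes, with a median of -0.091. It was RBMS3, an RNA-binding protein, with a difference of -2.36 (SE 0.64). ANKRD1, a cardiac and mesenchymal ankyrin repeat protein often used as a YAP readout, differed by 1.99 (SE 0.88) and was not called. It averaged 2.95 in non-metastatic tumors, near background. The mean of the 15 targets averaged 5.95 with an SD of 0.66 over the 13 metastatic tumors, and 6.08 with an SD of 0.14 over the 14 others, so that the metastatic tumors spread more widely.

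Markers of other cells also came from lists written with earlier results of these data known, so their counts are a description. The authors had already listed AURKA, CCNA2 and TPX2 as up-regulated and MYH11 and MYLK as down-regulated. Beside the counts stands the same background of 7.90% of all genes called lower and 11.3% called higher. Of the smooth muscle and myoepithelial genes 5 of 10 were called lower and 0 higher, among them the contractile genes MYLK (-2.47), MYH11 (-3.88) and ACTG2 (-2.14), and all 13 metastatic tumors lay below the non-metastatic median for each of these 3. Of 4 basal epithelial genes only the keratin KRT17 was called, lower by a difference of -2.88. Of 8 endothelial genes TEK (-1.02) was called lower and PECAM1 (1.00) and CLDN5 (1.41) higher. All 8 proliferation genes were called higher, TPX2 by 2.68, CCNA2 by 2.52 and AURKA by 2.10. Of 7 epithelial, 10 fibroblast, 9 leukocyte and 6 adipocyte genes 0 were called. With the proliferation mean in the fit LATS1 differed by -1.64 and was called, and STK4 (1.04), STK3 (0.32) and YAP1 (-0.62) were not.

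Over the 27 tumors, after subtraction of the lymph node group means, the genes whose values followed those of LATS1 most closely were CCNL2 (r = 0.75), KIAA1109 (r = 0.72) and SRSF4 (r = 0.72). Those closest to CCN2 were FMOD (r = 0.83), AHI1 (r = 0.82) and SYNE1 (r = 0.82). These are descriptions over 27 tumors that share arrays, normalization and cell composition, and no test was made of them. For LATS1, the 2 metastatic tumors with names not ending in T, at 6.32 and 6.38, lie far from the metastatic mean of 4.64. The r values without these 2 tumors were not computed.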

How the data were processed

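The authors measured 27 carcinomas on 1 Affymetrix Canine Genome 2.0 array each. The deposited values are log2 signals, which the authors made in Partek Genomic Suite with the gcRMA workflow (RMA background correction, quantile normalization, median polish). They ranged from 0.294 to 16.61. No detection calls were used here. Of 43035 probe sets, 175 controls were left out of the tests. Of the other 42860, the platform annotation gives 29254 a single symbol, 439 several and 13167 none. On this annotation TAZ names tafazzin and MST1 a growth factor, so neither was used for WWTR1 or STK4.

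Lymph node status came from the labels, and grade, size and age too. Grade of 1 non-metastatic tumor differs between the labels (II) and the methods (III). Linear models with moderated variances (two-sided; limma 3.58.1, R 4.3.3) were fitted to the log2 values over all 42860 probe sets with Benjamini-Hochberg adjustment, threshold 0.05. Grade and log2 size were each fitted with lymph node status, and the interaction of lymph node status with grade in a further fit. Correlations were tested with 100000 two-sided permutations and Benjamini-Hochberg adjustment over all pairs of a family in a group. Array values and list means were permuted without adjustment, and probe set differences within tumors with adjustment over 13 pairs. The p-values of these last comparisons are not printed. Scripts were tested on simulated data. Members and lists were chosen with earlier results of these data known. Named genes are all members and probe sets, list genes that passed (at most 6 per pathway list and direction, 3 per marker list), VGLL4, TEAD4, NF2 and ANKRD1, and the 3 genes most correlated with LATS1 and with CCN2. The labels name 27 separate dogs. Alternatives covered scaling, RNA quality, the test, thresholds, dim probe sets, the probe set of a gene, covariates, the name ending and single tumors. The comparison of tumors with names not ending in T, the second GAPDH pair and the subtraction of probe sets within tumors were chosen after the data were seen. Gene symbols follow the platform annotation, and sequences were not analysed here. Permutations and plots used Python 3.11.15 and matplotlib 3.10.9.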

Additional observations from a re-analysis of the deposited data

Results flagged for a closer look

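Each of the 10 genes was screened in 4 groups, by lymph node status and grade, for a highest or lowest tumor that stood apart from the rest of its group. This marked 6 of 40 groups, and chance marks about 1 in 20. LATS1 was marked 3 times. In metastatic tumors of grade II, metastatic tumor 1 stood at 6.38 and the next at 4.52, and in those of grade III, metastatic tumor 2 stood at 6.32 and the next at 5.01. These are the 2 metastatic tumors whose names do not end in T. In non-metastatic tumors of grade II, non-metastatic tumor 13 had the lowest LATS1 value, 5.24, with the next at 6.96. STK3 was highest at 7.17 in non-metastatic tumor 12 of grade III, matched by age, grade and size to the dog with later lung metastases, with the next at 6.33. CCN1 was lowest at 9.48 in non-metastatic tumor 10 of grade III, which at 15 cm is the largest tumor, with the next at 12.63. CCN2 was lowest at 12.4 in non-metastatic tumor 6 of grade II, with the next at 13.97.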

How the results depend on the processing

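Counts are given as genes lower and higher among the 10, then probe sets lower and higher among the 23, which were 2 and 2, 3 and 6. They were 2 and 1 (genes) after quantile normalization again, 1 and 1 (genes) with the array upper quartile, 1 and 1, 2 and 3 with the second GAPDH pair, 1 and 0, 2 and 2 at the thresholds of the methods (adjusted p 0.001, fold 1.7), 1 and 0 (genes) with log2 size, 0 and 0, 1 and 0 with the smooth muscle mean, 1 and 0, 2 and 0 with the proliferation mean, and 5 probe sets lower with the fibroblast mean, where LATS2 was the gene gained. With the name ending as a block, or among the 2 metastatic and 14 non-metastatic tumors with names not ending in T, they were 0 and 0, 0 and 0, where 2 tumors in a group leave little room for a call. Without single tumors 2 genes were lower, 2 to 3 higher, 3 probe sets lower and 6 to 9 higher. In the other settings run the counts stayed within 1.5 times, with 3 genes lower for the mean of all probe sets of a gene. By grade, size and interaction 0 of the 10 genes were called in every setting run. The cause of none of these changes was tested.

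Some differences took the other sign. By name ending, in both forms, these were LATS1 CfaAffx.1540.1.S1_at (-0.30), LATS2 (0.51, -0.13 and 0.54 in the order of the report), STK4 CfaAffx.15124.1.S1_at (-0.0067), CCN2 (0.20 and 0.064), VGLL4 (1.20) and TEK (0.69). With the smooth muscle mean they were LATS1 CfaAffx.1540.1.S1_at (-0.094), LATS2 Cfa.7713.1.A1_at (0.17) and CfaAffx.11693.1.S1_s_at (0.82), STK4 CfaAffx.15124.1.S1_at (-0.014), VGLL4 (0.22) and KRT17 (0.23). With the proliferation mean they were LATS2 CfaAffx.11693.1.S1_s_at (0.46), SAV1 CfaAffx.22343.1.S1_at (-0.028) and TEAD4 (-0.086). With log2 size they were LATS2 Cfa.17290.1.S1_s_at (-0.0032), CCN2 (0.087) and, for the grade difference, CCN2 (-0.011). WWTR1 was -0.10 with the array upper quartile. The slope on size in cm was 0.013 for STK3 and -0.0087 for WWTR1, and with grade that of WWTR1 was -0.0044. Leaving out single tumors, LATS2 CfaAffx.11693.1.S1_s_at ran from -0.15 to 0.090, the grade difference of LATS1 from -0.046 to 0.29, and the size slopes of STK3 from -0.099 to 0.0078, of YAP1 from -0.12 to 0.16, of WWTR1 from -0.065 to 0.13 and of CCN1 from -0.34 to 0.050. Signals near background limit STK4, TEAD1, the second STK4 probe set and the list genes NF2, TEAD4, VGLL1, VGLL2 and ANKRD1. Differences between low gcRMA values understate changes. No paired analysis was possible because tumors of both groups came from different dogs and their numbers follow the order of deposition.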

Other observations

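Non-metastatic tumor 12, matched by age, grade and size to the dog with later lung metastases although the recorded follow-up differs, lay at an end of the non-metastatic range in several of the 10 genes. It had the highest non-metastatic value at all 3 STK3 probe sets (7.17, 6.14 and 6.68), at the main SAV1 probe set (10.44) and at the second LATS1 probe set (6.04), and the lowest at YAP1 (9.56) and at both WWTR1 probe sets (9.10 and 5.96). Its CCN2 value of 14.5 was the highest of the non-metastatic tumors. Its main LATS1 value was 5.84, above that of non-metastatic tumor 13 (5.24). This is a single tumor, described after its values were seen.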
